A study of Mus musculus with 12 samples.

Results

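The genes described here are the caspase, apoptosome and p53 genes of resting B (RB) cells: Apaf1, Casp9, Casp2, Lrdd, Casp8, Casp6, Trp53 and Mdm2. They were chosen by name, and all 8 had probes on the array, which names 29411 genes, with 14 of its 61307 probes. Lrdd is an older symbol of Pidd1. The RB cells came from spleens of 6 weeks old female BALB/c mice by the labels, which name no engineered allele, and all were cultured for 4 h before RNA was taken. The methods describe negative selection with an enrichment cocktail and anti-CD43, and a purity check by flow cytometry that included the absence of CD4 and CD8. There were 6 groups of 2 arrays: unstimulated cells and cells stimulated with Pam2CSK4 (a lipopeptide ligand of TLR-2), anti-CD86, anti-CD86 with Pam2CSK4 (TLR2.CD86), anti-CD40, and anti-CD40 with Pam2CSK4 (anti-CD40.Pam2CSK4). The unstimulated cells received none of these agents. The study calls the arrays of a group biological replicates, but no source used here says whether they came from separate mice, so a p-value measures the spread between arrays.

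In the mitochondrial pathway of apoptosis, cytochrome c released from mitochondria binds the adaptor APAF1, which assembles into the apoptosome and activates the initiator caspase-9. Caspase-8 is the initiator at death receptors, caspase-2 is activated on the PIDDosome, a complex built around the product of Lrdd, and caspase-6 is an executioner that cleaves nuclear lamins. The transcription factor p53, the product of Trp53, induces many proapoptotic genes, and MDM2 is both a p53 target and the ubiquitin ligase that degrades p53.

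Of the probes, 4 are shown because they carry readouts that the results turn on: the Trp53 probe that rose, the Casp8 probe that moved with the slide, the Lrdd probe that disagreed with a second one, and the dimmer of the Mdm2 probes, which were not called. Each is 60 bases, in lower case throughout, as the scanner files give it:
Trp53 (P491849): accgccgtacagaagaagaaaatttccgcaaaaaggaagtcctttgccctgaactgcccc
Casp8 (P247799): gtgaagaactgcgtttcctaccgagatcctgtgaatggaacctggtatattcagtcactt
Lrdd (P79318): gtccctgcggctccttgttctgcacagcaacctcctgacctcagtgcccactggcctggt
Mdm2 (P201346): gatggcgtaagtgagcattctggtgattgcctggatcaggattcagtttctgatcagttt
The GC content of these probes was 50%, 45.0%, 63.3% and 45.0%. The accessions of all 14 probes matched the RefSeq table of GRCm38.p6 under the expected gene.

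Promoters are shown for 3 of the members whose brightest probe fell with both anti-CD40 stimulations, and for Mdm2 as a p53 target. They are the 250 bases before the annotated start in RefSeq, build GRCm38.p6. Capitals mark GC boxes (GGGCGG on either strand) in the first 3 and a p53 half-site in Mdm2:
Apaf1, chr10:91082744-91082993, minus strand: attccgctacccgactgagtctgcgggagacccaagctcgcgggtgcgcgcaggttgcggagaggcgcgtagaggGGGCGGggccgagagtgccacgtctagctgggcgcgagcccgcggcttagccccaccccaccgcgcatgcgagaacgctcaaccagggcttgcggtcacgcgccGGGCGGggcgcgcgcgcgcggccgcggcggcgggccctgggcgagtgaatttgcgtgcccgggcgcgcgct
Casp9, chr4:141793362-141793611, plus strand: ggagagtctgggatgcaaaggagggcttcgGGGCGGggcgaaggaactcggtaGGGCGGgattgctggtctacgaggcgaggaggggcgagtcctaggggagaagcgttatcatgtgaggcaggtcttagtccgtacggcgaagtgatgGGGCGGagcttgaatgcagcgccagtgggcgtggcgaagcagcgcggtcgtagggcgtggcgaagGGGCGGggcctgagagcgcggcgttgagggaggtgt
Casp6, chr3:129901165-129901414, plus strand: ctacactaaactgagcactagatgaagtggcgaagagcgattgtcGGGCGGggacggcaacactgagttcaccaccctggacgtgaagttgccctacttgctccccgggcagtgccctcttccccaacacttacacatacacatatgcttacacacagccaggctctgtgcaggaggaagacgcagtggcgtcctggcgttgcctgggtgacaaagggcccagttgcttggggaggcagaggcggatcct
Mdm2, chr10:117710759-117711008, minus strand: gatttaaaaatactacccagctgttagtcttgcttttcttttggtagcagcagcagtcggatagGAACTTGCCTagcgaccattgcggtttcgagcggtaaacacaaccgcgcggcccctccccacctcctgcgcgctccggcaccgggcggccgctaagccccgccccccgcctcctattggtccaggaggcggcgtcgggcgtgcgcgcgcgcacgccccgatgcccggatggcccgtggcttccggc
The GC box was found 4 times before Casp9, 2 times before each of Apaf1, Lrdd and Mdm2, 1 time before Casp6 and Casp2, and not before Casp8 and Trp53, so that genes that fell and genes that did not both had it. It occurs in 32.7% of 32851 promoter windows of the same length. A match to the p53 half-site was found 1 time before Mdm2 and 1 time before Trp53, against 7.13% of all windows. The NF-kB motif had 0 matches before the 8 genes, against 3.9% of all windows.

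Values are levels on a log2 scale: the log2 of the processed intensity, from which the 75th percentile of its array was subtracted. Each gene is given by its brightest probe unless another is named. Levels of different probes are not compared. Of the 14 probes, 13 were tested, among 31665 for which some group had both of its arrays well above background. A call means that limma gave an adjusted p under 0.05 (Benjamini-Hochberg, over all of these probes). Between 46.6% and 60.6% of the spots of an array were well above background. The arrays lay on 2 slides. Slide 1 held both unstimulated and both anti-CD40.Pam2CSK4 arrays, and each other group had replicate 1 on slide 1 and replicate 2 on slide 2. The slides differed at 18101 probes with the slide as a term, and values with this term are given beside the others. The median absolute difference between the arrays of a group was 0.09 and 0.11 for the groups on slide 1 alone and 0.22 to 0.33 for the others. All 8 B cell markers were well above background on all 12 arrays. So were 6 of 7 T cell, 4 of 5 NK cell, 7 of 7 myeloid, 4 of 5 red cell and 4 of 4 plasma cell markers.

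With anti-CD40, alone or with Pam2CSK4, the brightest probes of Casp9, Casp6, Casp2 and Apaf1 fell and that of Trp53 rose, while those of Casp8, Lrdd and Mdm2 were not called without the slide as a term. With anti-CD40.Pam2CSK4, Casp9 was at 0.349 of its unstimulated level, Casp6 at 0.492, Casp2 at 0.541 and Apaf1 at 0.726, while Trp53 rose 1.40-fold. These were 5 of the 8 genes, against 18.1% of all probes called in that comparison. The same 5 genes passed with anti-CD40 alone (16.7% of all probes called). With TLR2.CD86, 3 genes passed (10.6% of all probes called): Trp53 rose 1.51-fold, and Apaf1 and Casp9 were at 0.733 and 0.730 of the unstimulated level. With Pam2CSK4 alone and with anti-CD86 alone, 0 of 8 passed, against 0.133% and 2.06% of all probes. At an unadjusted p under 0.05, 3 genes differed with Pam2CSK4 (Casp9, Casp2 and Casp6) and 1 with anti-CD86 (Trp53). The share of all probes under that unadjusted p is not given here, so these counts cannot be set against it.

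**Figure D1:**
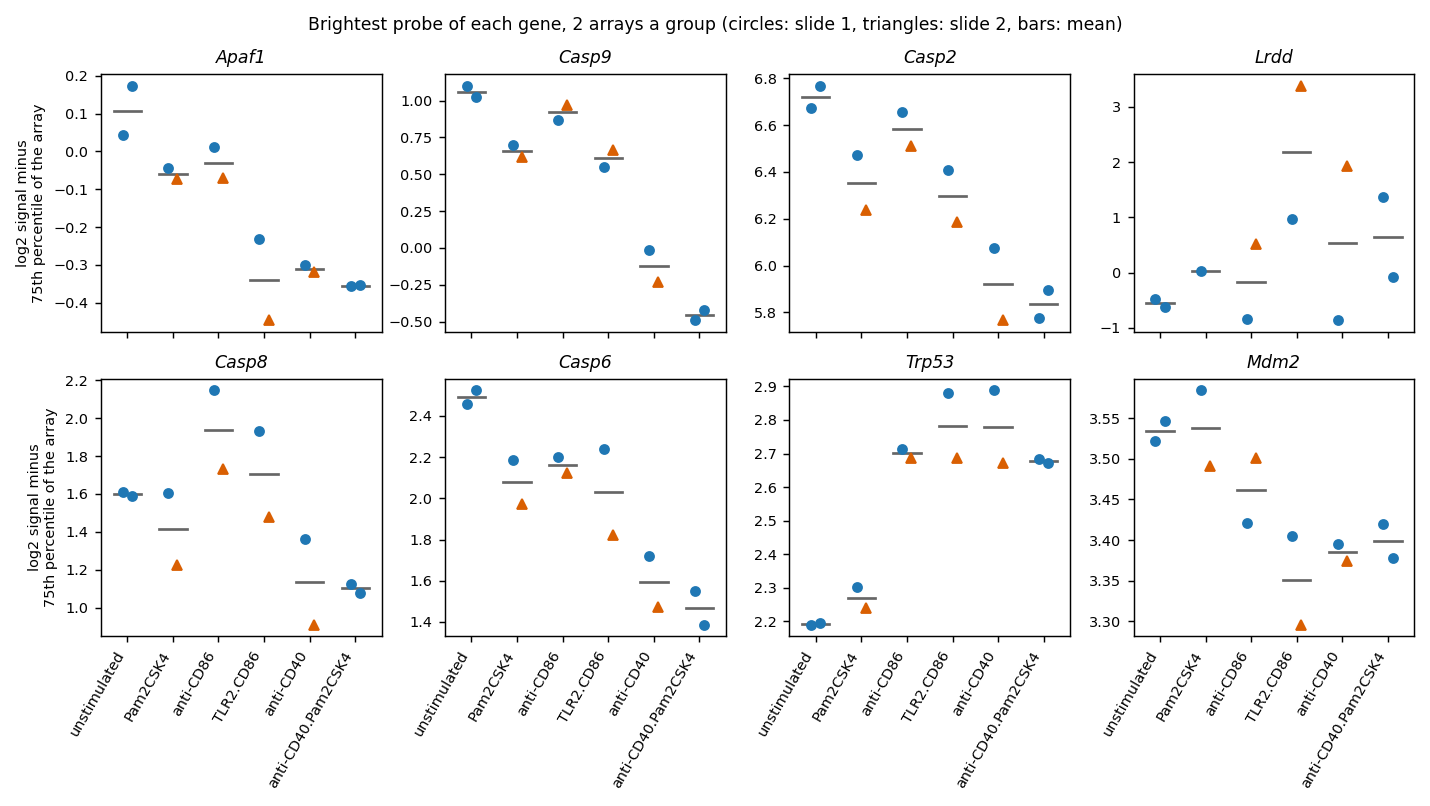
Log2 signal, with the 75th percentile of each array at 0 (y axis), for the brightest probe of each gene in 6 groups (x axis), with 2 arrays a group, circles for slide 1, triangles for slide 2 and bars for the group mean. Casp9 lay between 1.02 and 1.10 in unstimulated cells and between -0.49 and -0.02 in the 4 arrays with anti-CD40, and the outlier spot of Lrdd is left out.

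Casp9 moved most among the genes of the apoptosome. Its log2 signal was 1.10 and 1.02 in unstimulated cells, 0.70 and 0.62 with Pam2CSK4, 0.87 and 0.97 with anti-CD86, 0.55 and 0.67 with TLR2.CD86, -0.02 and -0.23 with anti-CD40, and -0.49 and -0.42 with anti-CD40.Pam2CSK4. Every stimulated array lay below both unstimulated arrays. Arrays of a stimulated and the unstimulated group did not overlap for 57.6% (Pam2CSK4), 62.3% (anti-CD86), 64% (TLR2.CD86), 62.2% (anti-CD40) and 76% (anti-CD40.Pam2CSK4) of all probes, so that separation alone is common here. The mean fell from 1.06 ± 0.06 (SD, n = 2) to -0.46 ± 0.05 (SD, n = 2) with anti-CD40.Pam2CSK4, or by -1.52 in log2 (SE 0.12, adjusted p = 0.000228, limma). With anti-CD40 alone it was -1.18 (SE 0.12, adjusted p = 0.00168). With TLR2.CD86 it was -0.45 (SE 0.12, adjusted p = 0.0468). With Pam2CSK4 alone it was -0.40 (adjusted p = 0.197), and TLR2.CD86 differed from Pam2CSK4 by -0.05 (95% interval -0.32 to 0.22). The interaction of anti-CD40 and Pam2CSK4, the effect of both minus the sum of the single effects, was 0.07 for Casp9 (95% interval -0.31 to 0.45, adjusted p = 0.797). Slide 2 minus slide 1 was -0.02 (adjusted p = 0.83).

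Apaf1, the scaffold of the apoptosome, changed less. The brightest of its 3 probes (P417701) read 0.04 and 0.17 in unstimulated cells, -0.04 and -0.07 with Pam2CSK4, 0.01 and -0.07 with anti-CD86, -0.23 and -0.45 with TLR2.CD86, -0.30 and -0.32 with anti-CD40, and -0.36 and -0.35 with anti-CD40.Pam2CSK4. The arrays of the last 3 groups lay below all the others, a split whose share over all probes is not given here. The log2 fold change against unstimulated cells was -0.45 with TLR2.CD86 (SE 0.11, adjusted p = 0.0442), -0.42 with anti-CD40 (adjusted p = 0.0408) and -0.46 with anti-CD40.Pam2CSK4 (adjusted p = 0.0255). The other probes of Apaf1 were dim, each well above background on 11 of 12 arrays. Probe P368696 was lower with anti-CD40.Pam2CSK4 by -1.27 (SE 0.32, adjusted p = 0.0305), where 1 of the 2 arrays was not well above background, and was at -0.86 (adjusted p = 0.12) with TLR2.CD86. Probe P621991 read 0.21 in both comparisons (adjusted p = 0.512 and 0.53), so the probes of Apaf1 disagreed there. With anti-CD40 alone all 3 were lower. P621991 was at -0.39 (adjusted p = 0.215), where 1 of the 2 arrays was not well above background. P368696 had a mean of -2.76 in unstimulated cells and -3.49 with anti-CD40. The 6 other genes of the apoptosome and mitochondrial list, among them Cycs, which encodes cytochrome c, had 0 calls against unstimulated cells in all 5 comparisons without the slide, with a median log2 fold change of -0.29 with TLR2.CD86 and 0.03 with anti-CD40.Pam2CSK4. With the slide as a term, 3 of the 6 were lower with TLR2.CD86, 2 were higher and 2 lower with anti-CD40, and 2 were higher and 1 lower with anti-CD40.Pam2CSK4. In that fit 34.9%, 37.1% and 47.3% of all probes were called in these comparisons.

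Casp2, the caspase of the PIDDosome, read 6.67 and 6.77 in unstimulated cells, 6.47 and 6.24 with Pam2CSK4, 6.66 and 6.51 with anti-CD86, 6.41 and 6.18 with TLR2.CD86, 6.08 and 5.77 with anti-CD40, and 5.77 and 5.89 with anti-CD40.Pam2CSK4. The 4 arrays with anti-CD40 lay below the other 8. How many of all probes split in the same way is not given here. Its log2 fold change was -0.80 with anti-CD40 (SE 0.15, adjusted p = 0.0149) and -0.89 with anti-CD40.Pam2CSK4 (SE 0.15, adjusted p = 0.00673). With TLR2.CD86 it was -0.42 (adjusted p = 0.109). The probe was lower on slide 2 by -0.23, and fitting the slide gave -0.31 (adjusted p = 0.0188).

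Lrdd, whose product is the scaffold of the PIDDosome, gave values that could not be read as 1 level. Its brightest probe (P79318) read -0.48 and -0.62 in unstimulated cells, -0.85 and 0.52 with anti-CD86, 0.98 and 3.38 with TLR2.CD86, -0.86 and 1.93 with anti-CD40, and 1.38 and -0.07 with anti-CD40.Pam2CSK4. With Pam2CSK4 it read 0.04, and 3.42 on a spot marked as an outlier that was left out, so that the fit used 11 arrays. In the 3 groups measured on both slides, the array on slide 2 was the higher one, by 2.19 in the fit (adjusted p = 0.0089). TLR2.CD86 exceeded unstimulated cells by 2.73 in log2 (SE 1.12, 95% interval 0.09 to 5.37, adjusted p = 0.153). Fitting the slide gave 1.64 (adjusted p = 0.0815). A second probe (P121236) was steadier, at -2.46 on both unstimulated arrays, -1.81 and -2.22 with Pam2CSK4, -1.59 and -1.92 with anti-CD86, -2.14 and -2.15 with TLR2.CD86, -1.94 and -2.38 with anti-CD40, and -1.88 and -1.76 with anti-CD40.Pam2CSK4. All 10 stimulated arrays lay above the unstimulated ones at that probe, and the share of all probes separated so is not given here. It was not called in the 5 comparisons (log2 fold changes 0.30 to 0.71, lowest adjusted p = 0.0586). With the slide as a term it was called in all 5, from 0.45 with anti-CD40 (adjusted p = 0.0245) to 0.86 with anti-CD86 (adjusted p = 0.0044), where 10.8% to 47.3% of all probes were called. The third probe of Lrdd was well above background on 2 of 12 arrays and was not tested.

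**Figure D2:**
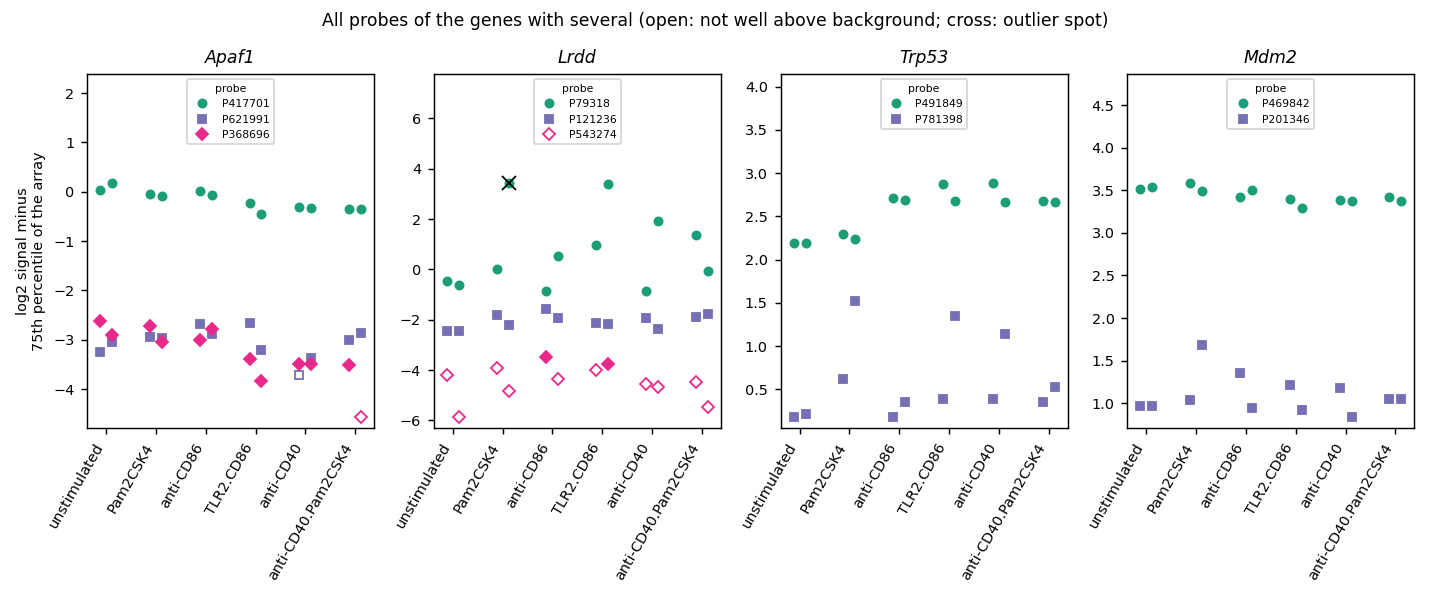
Log2 signal, with the 75th percentile of each array at 0 (y axis), of every probe of the 4 genes with several, by group (x axis), with the left point of a group for replicate 1 and the right for replicate 2. The brightest Lrdd probe ran from -0.86 to 3.42 with its outlier spot (cross), while its second probe ran from -2.46 to -1.59; open symbols were not well above background.

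Casp8, the death receptor initiator, was the only one of the 5 caspase and apoptosome members here whose mean was above unstimulated cells in some groups and below it in others. It read 1.61 and 1.59 in unstimulated cells, 1.61 and 1.22 with Pam2CSK4, 2.15 and 1.73 with anti-CD86, 1.93 and 1.48 with TLR2.CD86, 1.36 and 0.91 with anti-CD40, and 1.13 and 1.08 with anti-CD40.Pam2CSK4. The array on slide 2 was the lower one in each group that lay on both slides, by -0.43 in the fit (SE 0.03, adjusted p = 0.000445). No comparison passed without the slide: the log2 fold change was 0.34 with anti-CD86 (adjusted p = 0.431) and -0.50 with anti-CD40.Pam2CSK4 (adjusted p = 0.173). With the slide as a term, Casp8 was higher with anti-CD86 by 0.55 (adjusted p = 0.00215) and with TLR2.CD86 by 0.32 (adjusted p = 0.0054). In the same fit it was lower with anti-CD40 by -0.25 (adjusted p = 0.0104) and with anti-CD40.Pam2CSK4 by -0.50 (adjusted p = 0.000408). On slide 1 alone these differences were 0.55, 0.33, -0.24 and -0.50. With the slide as a term 28.2%, 34.9%, 37.1% and 47.3% of all probes were called in these comparisons.

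Casp6, the executioner, read 2.46 and 2.52 in unstimulated cells, 2.19 and 1.97 with Pam2CSK4, 2.20 and 2.12 with anti-CD86, 2.24 and 1.82 with TLR2.CD86, 1.72 and 1.47 with anti-CD40, and 1.55 and 1.39 with anti-CD40.Pam2CSK4. As with Casp2, the 4 arrays with anti-CD40 were the lowest, again with no share of all probes given for that split. The log2 fold change was -0.90 with anti-CD40 (SE 0.17, adjusted p = 0.0136) and -1.02 with anti-CD40.Pam2CSK4 (SE 0.17, adjusted p = 0.00544). With TLR2.CD86 it was -0.46 (adjusted p = 0.11), and fitting the slide gave -0.34 (adjusted p = 0.038).

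Trp53 was the one gene among the 8 whose brightest probe was called higher without the slide. Its brightest probe (P491849) read 2.19 and 2.20 in unstimulated cells, 2.30 and 2.24 with Pam2CSK4, 2.71 and 2.69 with anti-CD86, 2.88 and 2.69 with TLR2.CD86, 2.89 and 2.67 with anti-CD40, and 2.68 and 2.67 with anti-CD40.Pam2CSK4. The 8 arrays with anti-CD86 or anti-CD40 lay between 2.67 and 2.89, above the 4 without. For this split, too, the share of all probes is not given here. The log2 fold change was 0.59 with TLR2.CD86 (SE 0.12, adjusted p = 0.0248), 0.59 with anti-CD40 (adjusted p = 0.0169) and 0.48 with anti-CD40.Pam2CSK4 (adjusted p = 0.0252). With anti-CD86 alone it was 0.51 (adjusted p = 0.0646), and fitting the slide gave 0.57 (adjusted p = 0.00315). With Pam2CSK4 alone it was 0.08 (95% interval -0.19 to 0.35). TLR2.CD86 exceeded Pam2CSK4 by 0.51 (adjusted p = 0.209), a difference that passed when the slide was fitted (adjusted p = 0.0119). The second probe of Trp53 (P781398) was called in none of the 5 comparisons. It read 0.62 and 1.52 with Pam2CSK4 and was higher on slide 2 by 0.70 (adjusted p = 0.00484), so the 2 probes of Trp53 did not give the same order of groups.

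Mdm2 changed least. Its brightest probe spanned 0.29 over all 12 arrays, from 3.30 to 3.58, and 0 comparisons passed with or without the slide. With TLR2.CD86 it read 3.41 and 3.30 against 3.52 and 3.55 in unstimulated cells, a difference of -0.18 in log2 (95% interval -0.41 to 0.05, adjusted p = 0.256). The interval with anti-CD40.Pam2CSK4 was -0.37 to 0.10. The second probe ran from 0.84 to 1.69, and 0 of its comparisons with unstimulated cells passed.

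**Figure D3:**
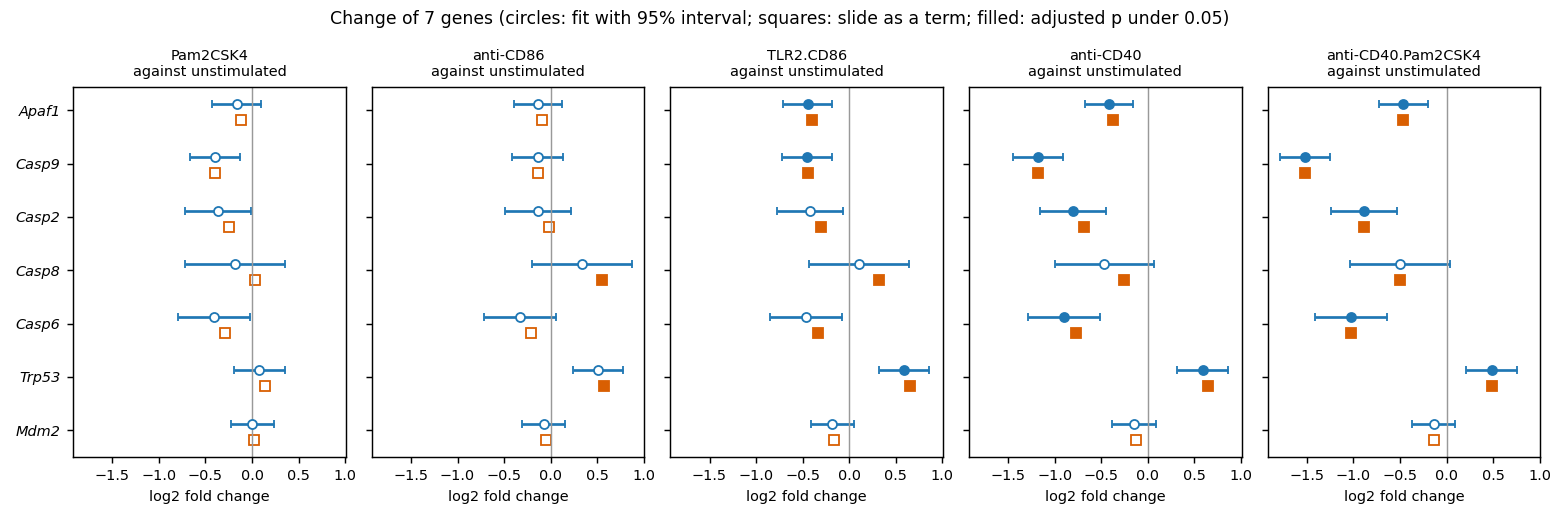
Log2 fold change against unstimulated cells (x axis) of 7 genes (y axis) in 5 stimulations, with circles for the fit without the slide and its 95% interval and squares for the fit with the slide as a term, filled where the adjusted p was under 0.05. Lrdd is left out for its wide interval; Casp9 fell by 1.18 with anti-CD40 and by 1.52 with anti-CD40.Pam2CSK4.

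The design also set the combined stimulations against each other and against their single signals. Between anti-CD40.Pam2CSK4 and TLR2.CD86, which share Pam2CSK4, 1 of 8 genes passed (12.2% of all probes called). This was Casp9, lower with anti-CD40.Pam2CSK4 by -1.06 (SE 0.12, adjusted p = 0.00183). When the slide was fitted, Casp2 (-0.58), Casp8 (-0.82) and Casp6 (-0.68) passed as well, with adjusted p-values of 0.00171, 0.000173 and 0.00291, where 34.4% of all probes did. Trp53 differed by -0.11 in that comparison (95% interval -0.38 to 0.16). TLR2.CD86 differed from Pam2CSK4 and from anti-CD86 in 0 of 8 genes, against 0.0632% and 0.227% of all probes. Unadjusted p-values under 0.05 were found for Trp53 and Apaf1 in the first and for Casp9 and Apaf1 in the second. Here too the share of all probes at that unadjusted p is not given. With the slide as a term, Casp8 and Trp53 passed in the first (10.7% of all probes) and Casp8 in the second (7.54%). In the interactions of Pam2CSK4 with anti-CD86 and with anti-CD40, 0 of 8 genes passed with or without the slide, against 0.0189% and 1.15% of all probes without it and 0.234% and 8.41% with it. The brightest probe of none of the 8 genes had an unadjusted p under 0.05 in either interaction without the slide. The second Lrdd probe did in the interaction with anti-CD86, at -0.83 (adjusted p = 0.968).

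The fits were also repeated with single arrays left out, which left 1 array in the group concerned. With TLR2.CD86, 0 of the 3 calls passed when any 1 of the 4 arrays compared was left out, with Trp53 between 0.49 and 0.69 and adjusted p-values from 0.0713 to 0.153. With anti-CD40, Casp9 passed in each case. Only Casp9 passed when unstimulated replicate 1 or replicate 2 was left out, Casp9 and Trp53 passed without replicate 2 of anti-CD40, and 4 genes passed without replicate 1. With anti-CD40.Pam2CSK4, Casp9 and Casp6 passed in each case, Casp2 without unstimulated replicate 1 or without anti-CD40.Pam2CSK4 replicate 2, and Apaf1 and Trp53 in none. Between anti-CD40.Pam2CSK4 and TLR2.CD86, Casp9 passed in each case. The calls also depended on the scaling: when arrays were centred on their medians, 1 of 8 genes passed with anti-CD40 (Casp9), 1 with TLR2.CD86 (Lrdd) and 0 with anti-CD40.Pam2CSK4, where Casp9 was at -1.63 (adjusted p = 0.0605). Casp9 did not pass between anti-CD40.Pam2CSK4 and TLR2.CD86 either, at -0.89 (adjusted p = 0.624). The shares of all probes called with arrays left out or centred on medians are not given here. Whether calls were lost over all probes alike was therefore not shown.

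The other genes of the pathway were taken from lists by role. Over all probes, 3.4% rose and 7.21% fell with TLR2.CD86, 6.14% and 10.5% with anti-CD40, and 8.51% and 9.62% with anti-CD40.Pam2CSK4. More probes were called when the slide was fitted: 12.8% rose and 15.4% fell with anti-CD86, 14.5% and 20.3% with TLR2.CD86, 15.7% and 21.4% with anti-CD40, and 23.7% and 23.6% with anti-CD40.Pam2CSK4. Casp4, an inflammatory caspase, was higher with anti-CD40.Pam2CSK4 by 0.89 (SE 0.19, adjusted p = 0.0147). With anti-CD86 alone, the p53 target Pmaip1 was called at -0.85 (adjusted p = 0.0374) and the nuclease gene Dffb at 0.96 (adjusted p = 0.0264).

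Of 10 genes of the death receptor complex, 2 rose and 1 fell with anti-CD40 (6.14% and 10.5% of all probes) and with anti-CD40.Pam2CSK4 (8.51% and 9.62%). Fas, a death receptor upstream of caspase-8, rose by 1.67 with anti-CD40.Pam2CSK4 (SE 0.17, adjusted p = 0.000723) and by 1.13 with anti-CD40 (adjusted p = 0.00621). Bid, the caspase-8 substrate that carries the signal to mitochondria, rose by 0.93 with anti-CD40.Pam2CSK4 (adjusted p = 0.00893). Tnfrsf1a, the TNF receptor, fell by 0.71 with anti-CD40.Pam2CSK4 (adjusted p = 0.00262) and by 0.83 with TLR2.CD86 (adjusted p = 0.00846), the only call of this list there without the slide. Fitting the slide gave 2 rises and 3 falls with TLR2.CD86 (14.5% and 20.3% of all probes). It gave 4 and 2 with anti-CD40 (15.7% and 21.4%), and 5 and 2 with anti-CD40.Pam2CSK4 (23.7% and 23.6%). Fadd, the adaptor that recruits caspase-8, was among the rises in all 3, at 0.39, 0.40 and 0.33. The median of the list was 0.19 with anti-CD40.Pam2CSK4 and -0.17 with TLR2.CD86, beside 0.01 and -0.03 over all probes. With the slide fitted it was 0.19 and -0.02, beside 0.01 and -0.01, so the lower value with TLR2.CD86 depended on the slide.

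Of 7 inhibitors of apoptosis, 3 rose with anti-CD40.Pam2CSK4 (8.51% of all probes): Birc3 by 1.35 (SE 0.17, adjusted p = 0.00189), Birc5 by 1.01 (adjusted p = 0.0013) and Birc2 by 0.98 (adjusted p = 0.00144). Birc2 and Birc3 encode the ubiquitin ligases cIAP1 and cIAP2, and Birc5 encodes survivin, which also acts in cell division. The same 3 rose with anti-CD40 alone (6.14% of all probes), by 0.88, 0.94 and 0.88 for Birc2, Birc3 and Birc5, where Birc6 fell by 0.47 (adjusted p = 0.024). With TLR2.CD86, 0 rose (3.4% of all probes) and Birc6 fell by 0.43 (adjusted p = 0.0423). The median was 0.39 with anti-CD40, beside -0.01 over all probes. When arrays were centred on their medians, the median of all probes moved to -0.58 and that list median to -0.18. Both scalings subtract 1 constant per array, so the distance of 0.40 is kept by construction.

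Among 17 tested genes of the PIDDosome and p53 regulator list, 1 was called with TLR2.CD86 (10.6% of all probes), 2 with anti-CD40 (16.7%) and 1 with anti-CD40.Pam2CSK4 (18.1%). Chek1, a DNA damage checkpoint kinase, fell by 0.42 with TLR2.CD86 (adjusted p = 0.0469). Rchy1, a ubiquitin ligase of p53, fell by 0.66 with anti-CD40 (adjusted p = 0.0136) and by 0.71 with anti-CD40.Pam2CSK4 (adjusted p = 0.0068). The median of the list was 0.01 with TLR2.CD86 and 0.08 with anti-CD40.Pam2CSK4, beside -0.03 and 0.01 over all probes. Ppp1r13l, the inhibitory ASPP protein of p53, rose by 1.57 with anti-CD40 (SE 0.29, adjusted p = 0.0133). When the slide was fitted, 5 rose and 1 fell with anti-CD86 (12.8% and 15.4% of all probes). With TLR2.CD86, 5 rose and 4 fell (14.5% and 20.3%), and with anti-CD40, 2 rose and 1 fell (15.7% and 21.4%). With anti-CD40.Pam2CSK4, 4 rose and 1 fell (23.7% and 23.6%). Trp53bp1, which encodes the DNA damage response protein 53BP1, was among the rises in these 4, at 0.64, 0.66, 0.43 and 0.59.

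The p53 targets as a list lay below unstimulated cells while the brightest Trp53 probe lay above. Of 25 tested targets other than the 8 genes above, 0 rose and 5 fell with TLR2.CD86, where 3.4% of all probes rose and 7.21% fell. The falls were Pmaip1 (-0.85), Gadd45a (-0.74), Bbc3 (-0.69), Ei24 (-0.58) and Plk2 (-0.48), with adjusted p-values from 0.0116 to 0.0478. In the fit with the slide, 3 rose (Fas, Ddb2 and Aen) and 10 fell in that comparison, against 14.5% and 20.3% of all probes. Pmaip1 and Bbc3 encode NOXA and PUMA, BH3-only proteins that promote apoptosis, and Gadd45a encodes a stress response protein. With anti-CD40.Pam2CSK4, 2 rose and 7 fell (8.51% and 9.62% of all probes). Among the falls were Gadd45a (-1.23, adjusted p = 0.000402) and Trp53inp1 (-0.999, adjusted p = 0.00215). Perp, at -3.05 in unstimulated cells, was also called lower with anti-CD40.Pam2CSK4 (adjusted p = 0.0231). It was not well above background on either array there, so no fold is given. The 2 that rose were Fas and Aen (0.90, adjusted p = 0.00571), a nuclease. With anti-CD40 alone, 2 rose and 7 fell as well (6.14% and 10.5% of all probes), with Gadd45a at -1.06, Sesn1 at -1.05 and Btg2 at -1.04 among the falls. After fitting the slide, 2 rose and 11 fell with anti-CD40, and 3 rose and 13 fell with anti-CD40.Pam2CSK4, where 23.7% of all probes rose and 23.6% fell. With Pam2CSK4 alone and anti-CD86 alone, the brightest Trp53 probe was not called without the slide. It was at 0.08 and 0.51 there (adjusted p = 0.752 and 0.0646, limma), and fitting the slide called it with anti-CD86 (adjusted p = 0.00315). The median of the target list in these comparisons was -0.23 and -0.28, beside -0.07 and -0.05 over all probes. With the slide fitted these were -0.10 and -0.13, beside -0.04 and -0.05. The median of the list was -0.35 with TLR2.CD86, -0.45 with anti-CD40 and -0.38 with anti-CD40.Pam2CSK4, beside -0.03, -0.01 and 0.01 over all probes. In the last 3 comparisons the median was below that of all probes under quantile and normexp processing and with the slide as a term. Median normalization only changes the constant subtracted from each array, so it keeps this distance by construction. With median normalization, though, 0 of the 25 passed. Cdkn1a, which encodes the cell cycle inhibitor p21, was not called in these 3 comparisons, at -0.64, -0.80 and 0.53. It was called in all 3 when the slide was fitted, lower in the first 2 at -0.44 and -0.59 and higher in the third at 0.53.

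**Figure D4:**
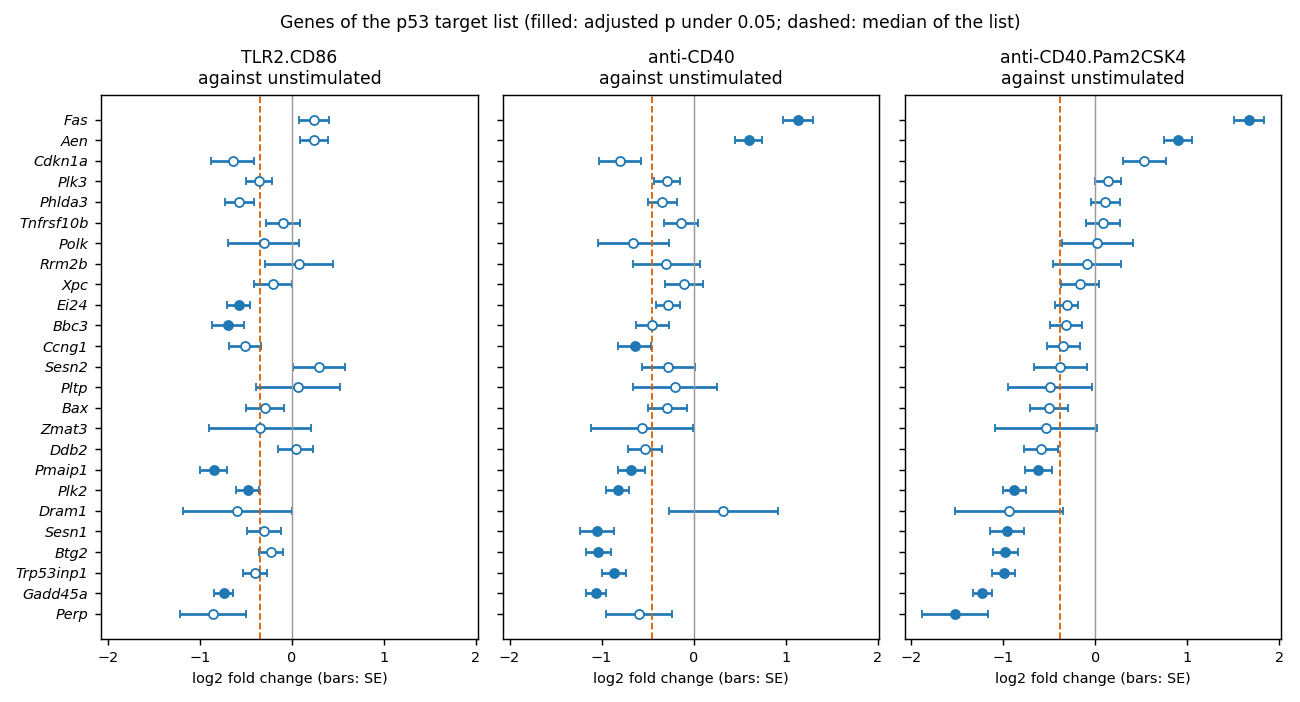
Log2 fold change against unstimulated cells with its SE (x axis) of 25 p53 target genes (y axis, ordered by the anti-CD40.Pam2CSK4 value) in 3 stimulations, filled where the adjusted p was under 0.05, with a dashed line at the median of the list. The medians were -0.35, -0.45 and -0.38, and Fas and Aen lay to the right of 0 in each panel; Perp with anti-CD40.Pam2CSK4 was not well above background.

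Among 7 tested executioner substrates and nuclease genes, Dffa, the inhibitor of the caspase-activated nuclease, rose with TLR2.CD86 by 0.67 (adjusted p = 0.045), with anti-CD40 by 0.65 (adjusted p = 0.038) and with anti-CD40.Pam2CSK4 by 0.91 (adjusted p = 0.00909). The nuclease gene Dffb rose with TLR2.CD86 by 0.71 (adjusted p = 0.0202) and with anti-CD40 by 0.50 (adjusted p = 0.0376). Lmnb1, which encodes lamin B1, fell by 0.69 with TLR2.CD86 (adjusted p = 0.0489), rose by 0.65 with anti-CD40 (adjusted p = 0.0446) and rose by 1.40 with anti-CD40.Pam2CSK4 (SE 0.18, adjusted p = 0.00201). Cidea, at -3.10 in unstimulated cells, was called lower with anti-CD40.Pam2CSK4 (adjusted p = 0.035). It was not well above background on either array there, so no fold is given. Rock1, a kinase cleaved in apoptosis, fell by 0.48 with anti-CD40 (adjusted p = 0.0376). The median of these 7 genes was -0.34 with TLR2.CD86 and 0.30 with anti-CD40.Pam2CSK4, beside -0.03 and 0.01 over all probes. When the slide was fitted, 3 rose and 4 fell with TLR2.CD86 (14.5% and 20.3% of all probes). With anti-CD40, 4 rose and 1 fell (15.7% and 21.4%), and with anti-CD40.Pam2CSK4, 3 rose and 1 fell (23.7% and 23.6%).

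Markers of other cells moved beside these changes. The summed level of the 5 NK cell markers, on the log2 scale, was 3.95 in unstimulated cells and 3.23 to 3.64 in the stimulated groups, and that of the 7 T cell markers was 5.09 and 4.67 to 4.97. Bright markers weigh most in these sums, and single markers differed. With TLR2.CD86, Ncr1, Klrb1c, Nkg7 and Gzma were lower than in unstimulated cells, and Prf1 was higher (-0.56 and -0.44). Among the T cell markers, Cd3g, Cd3d, Cd8a and Thy1 were lower, Cd3e and Cd4 were higher, and Lck was at 2.96 in both. The summed level of the 8 B cell markers was 8.47 and 8.37 to 8.85. That of the 7 myeloid markers was 8.37 and 8.09 to 8.46, and they did not all move the same way. Csf1r was at -0.83 in unstimulated cells and -1.57 with TLR2.CD86, Itgam at -0.82 and -1.61, and Emr1 at 0.98 and 0.09. S100a8 was lower with TLR2.CD86 as well. Lyz2 was higher, at 0.59 in unstimulated cells and 0.93 with TLR2.CD86. Cd14 changed little, at 3.01 and 2.95, and S100a9 was at 7.57 in both. The part of other cells in the changes above was not tested, and fewer cells of a type and less RNA per cell cannot be told apart in these bulk samples.

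By Pearson's r over the 12 arrays and among 14542 genes, the genes with the pattern most like Casp9 were Mapre2 and 2610008E11Rik (r = 0.991 for both). For Casp2 they were Ostm1 (0.991) and Atad2 (0.99), and for Casp6 Golm1 (0.989) and Tmem9 (0.983). For Casp8 they were Nde1 (0.981) and Mbnl2 (0.975), for Apaf1 Bbs9 (0.965) and Dtl (0.963), and for Trp53 Efnb3 (0.948) and Rrp12 (0.941). For Mdm2 they were Cd8a (0.93) and Gm5946 (0.922), and for Lrdd, over 11 arrays, Gm3225 (0.961) and LOC100048206 (0.948). The arrays share groups and slides, so these values are descriptions. Among the members themselves, Casp9 had an r of 0.94 with Casp2 and 0.918 with Casp6.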

How the data were processed

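RNA of RB cells was hybridised to 12 one-colour (Cy3) Agilent mouse arrays, 2 for each of 6 groups taken from the labels. The authors deposited scanner files of Feature Extraction 10.5.1.1, whose intensity per spot (the processed signal) was corrected for background within the array, and a table of log2 values that equal the log2 processed signal minus a constant per array. The table was used as an alternative. Probe names and symbols are those of the files, annotated to mm9.

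Spots of controls were dropped, as were the 5 to 35 spots of each array that the scanner software had marked as outliers. Each log2 intensity was set against the 75th percentile of its array. Group means over all 12 arrays were fitted by limma 3.58.1 (R 4.3.3) with empirical Bayes moderation, and p-values were adjusted over all 31665 probes tested (8464 of them noncoding RNA probes). For 64 probes with a missing value the fit used the arrays left. The comparisons were the 5 stimulations against unstimulated cells, TLR2.CD86 against each single signal, anti-CD40.Pam2CSK4 against TLR2.CD86, and 2 interactions. The fit was tested on simulated data. The members, gene lists, naming rule and tests were chosen with earlier results of these data known. In each list, the genes named are those called with TLR2.CD86 or anti-CD40.Pam2CSK4, up to the 3 largest rises and falls; further genes were named after their values were seen.

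Other settings tried were median or quantile normalization, normexp (offset 50), the authors' table, no filter on dim probes, outlier spots kept, the slide or the replicate number as a block, no moderation (the one-way fit named in the methods), the mean over probes, and leaving out each array. The number of arrays limits the precision; no spot of the 14 probes was saturated. Figures were made with Python 3.11.15. Results for some genes of the lists are not reported here.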

Additional observations from a re-analysis of the deposited data

How the results depend on the processing

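Between 0 and 2 of 8 genes passed with anti-CD86 (0 in the fit reported): 1 with quantile normalization, normexp, no moderation and the replicate block, and 2 with the slide block. With TLR2.CD86 (3 reported), 1 passed with median normalization (Lrdd, 2.44), 0 without the filter, 6 with the slide block and 1 with the mean over probes. With anti-CD40 (5 reported), 1 passed with median normalization and 1 without the filter. With anti-CD40.Pam2CSK4 (5 reported), 0 passed with median normalization, 3 without the filter and 3 with the mean over probes. Between anti-CD40.Pam2CSK4 and TLR2.CD86 (1 reported), 0 passed with median normalization, 3 with quantile normalization, 3 with normexp, 4 with the slide block and 4 with the replicate block. TLR2.CD86 against Pam2CSK4 and against anti-CD86 (0 reported) gave 2 and 1 with the slide block. Leaving out single arrays gave 0 to 0 with TLR2.CD86, 1 to 4 with anti-CD40, 2 to 3 with anti-CD40.Pam2CSK4 and 1 to 2 between the latter and TLR2.CD86. The causes of these changes were not tested. Shares of all probes called are given above only for the fit reported and the slide block. Counts under the other settings therefore cannot be set against a share. Median normalization moved the median of all probes to -0.58 with anti-CD40 and -0.32 with TLR2.CD86. Relative to it Casp9 was at -1.17 and -0.42. These relative values are the same in the fit reported by construction, since both scalings subtract a constant from each array.

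Samples that share a replicate number need not be paired: their deviations correlated from -0.11 to 0.67 over 15 pairs of groups, with 6 pairs over 0.1. With the replicate block 4, 6 and 6 genes passed with TLR2.CD86, anti-CD40 and anti-CD40.Pam2CSK4. The share of all probes called with that block is not given here.

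No called value changed sign. Values that were not called did so in these cases. With median normalization, these were Trp53 (-0.12) and Mdm2 (-0.19) with Pam2CSK4, Casp8 (-0.18) with TLR2.CD86, Trp53 (-0.065) between TLR2.CD86 and anti-CD86, Apaf1 (0.16) and Trp53 (0.073) between anti-CD40.Pam2CSK4 and TLR2.CD86, and Lrdd (0.022) and Trp53 (0.47) in the anti-CD40 interaction. With quantile normalization, these were Casp2 (0.042) and Mdm2 (0.049) with anti-CD86, Casp2 (0.035) between TLR2.CD86 and Pam2CSK4, Mdm2 (-0.072) between anti-CD40.Pam2CSK4 and TLR2.CD86, Casp2 (-0.0073) and Trp53 (-0.056) in the anti-CD86 interaction, and Mdm2 (-0.18) in the anti-CD40 interaction. With normexp, these were Apaf1 (0.021) between anti-CD40.Pam2CSK4 and TLR2.CD86, Trp53 (-0.023) in the anti-CD86 interaction, and Mdm2 (-0.064) in the anti-CD40 interaction. With the slide block, these were Casp8 (0.028) with Pam2CSK4, Lrdd (-0.71) with anti-CD86, Lrdd (-0.0082) with anti-CD40, Casp2 (-0.035) and Trp53 (-0.058) in the anti-CD86 interaction, and Lrdd (0.62), Casp8 (-0.27) and Mdm2 (-0.026) in the anti-CD40 interaction. With the mean over probes, these were Lrdd (-0.049) with Pam2CSK4, Apaf1 (0.029) and Mdm2 (0.058) with anti-CD86, Trp53 (-0.13) in the anti-CD86 interaction, and Lrdd (0.28) and Mdm2 (-0.18) in the anti-CD40 interaction.

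With single arrays left out, these ranges crossed 0. Between anti-CD40.Pam2CSK4 and TLR2.CD86 they were -0.12 to 0.091 for Apaf1 and -0.0065 to 0.10 for Mdm2. In the anti-CD86 interaction they were -0.040 to 0.20 for Casp2, -0.28 to 0.18 for Casp8 and -0.092 to 0.10 for Trp53. Between TLR2.CD86 and Pam2CSK4 they were -0.18 to 0.062 for Casp2, -0.26 to 0.16 for Casp6 and -0.11 to 0.0070 for Casp9. Between TLR2.CD86 and anti-CD86 they were -0.34 to 0.078 for Casp6 and -0.014 to 0.18 for Trp53. In the anti-CD40 interaction they were -0.074 to 0.38 for Casp8, -0.038 to 0.18 for Casp9, -1.86 to 0.92 for Lrdd and -0.036 to 0.056 for Mdm2. With Pam2CSK4 they were -0.38 to 0.0054 for Casp8 and -0.042 to 0.050 for Mdm2. With TLR2.CD86 they were -0.13 to 0.33 for Casp8. With anti-CD40 they were -0.31 to 2.48 for Lrdd. With anti-CD86 they were -0.30 to 1.07 for Lrdd.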
